A study of Mus musculus with 8 samples.

Results

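Cultured mouse hippocampal cells that carried much Gja1 RNA at day 4 of differentiation were examined. Gja1 encodes connexin 43, the main gap-junction protein of astrocytes, the star-shaped glial cells that support neurons. A day 4 cell was taken as Gja1-high where its deposited log2 value of Gja1 was at least 2, which is a normalised count of at least 3. This held for 1885 of the 6045 day 4 cells, in a series of 30408 cells. They were 812 of 2534 cells in one day 4 library and 1073 of 3511 cells in the other. They were compared, within each library, with the 1042 and 1378 cells in which Gja1 was listed at 0, called Gja1-zero. Both sets were chosen by the Gja1 value of the cell, so everything said of Gja1 below is a description, and no test was run.

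The cells were neural stem and progenitor cells cut from the dentate gyrus of mouse embryos, of embryonic day 18 per the labels (the study's methods state an earlier day), and were kept undifferentiated in culture with the growth factors EGF and FGF2. Removal of the factors started differentiation, and libraries were made on days 0, 2, 4 and 8. One group is labelled C57Bl/6J wild type and the other Kmt2d+/βgeo, with the gene-trap allele Mll2Gt(RRt024)Byg in 1 copy of Kmt2d, a histone methyltransferase gene. The embryos were littermates from C57BL/6J females and Kmt2d+/βgeo males, and nothing in the sources used here gives the sex or number of embryos per culture. The cells grew in a dish with no other tissue, so the groups model progenitors and their progeny in vitro only. RNA was read by droplet single-cell sequencing of 3′ ends in which a molecular barcode (UMI) tags every captured RNA molecule once. There was 1 library per genotype and day, so cells were not replicates, and the intervals given cover counting error only.

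Before the results, the label of one day 4 library needs a remark. Genes were counted here at a mean normalised count of at least 0.1 in either library of the day. Of these, 29 differed by at least 1 in log2 mean level with 1 sign between the groups on days 0, 2 and 8. None of the 29 did at day 4, and all 29 were nearer to wild type in the day 4 library labelled Kmt2d+/βgeo. Luzp2 shows this, with a mean normalised count of 0.287, 1.48 and 2.62 in the libraries labelled Kmt2d+/βgeo on days 0, 2 and 8, against 0.0502 at day 4. In the wild-type libraries Luzp2 lay between 0.00824 and 0.0575. On these 29 genes the day 4 library labelled Kmt2d+/βgeo was thus nearer to the wild-type group than to its own. With 1 library per genotype and day, a wrong label and a difference between cultures cannot be told apart. The pair is therefore used below as a set of 2 libraries of day 4 cells, with no reading of genotype. Values are given for the library labelled Kmt2d+/βgeo first and for the wild-type library second. The pair shared 2 cell barcodes, within the range of 0 to 10 over all 28 pairs of libraries, and 0 barcodes were Gja1-high in both. Median total UMIs per cell were 20261 and 17557. The Gja1-high cells were somewhat deeper than the Gja1-zero cells, with medians of 9258 against 8831 and 8413 against 7774 UMIs on the 9140 genes of the matrix. The 25th percentiles were 8256 against 7403 and 7417 against 6538.

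Astrocytes couple to each other through connexin channels, clear glutamate from synapses with the transporters encoded by Slc1a2 and Slc1a3, and turn it into glutamine with the synthetase encoded by Glul. They also secrete apolipoprotein E, the product of Apoe, which carries lipid between brain cells. When growth factors are withdrawn, cultured neural progenitors can give rise to astrocytes, oligodendrocyte-lineage cells and neurons. Olig2 encodes a basic helix-loop-helix factor of the oligodendrocyte lineage that is also active in progenitors, and Myt1 encodes a zinc-finger factor of oligodendrocyte precursors and new neurons.

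The start regions of Gja1, which defined the cells, and of Olig2 and Myt1, 2 transcription factor genes by which the Gja1-zero cells are split below, are shown from RefSeq on GRCm38.p6. All 3 genes looked up were found. Each run is 300 bases on the + strand, from 250 bases before to 50 bases from the annotated start. Capitals mark any match, on either strand, to the NFI half-site TTGGCA, the SOX core ACAATG or the E-box CAGCTG, none of which overlap here. The Gja1 window lies at chr10:56377050-56377349 and takes in the first 20 exonic bases of the gene in GENCODE, the Olig2 window at chr16:91225300-91225599 takes in 143, and the Myt1 window at chr2:181763082-181763381 takes in 50, the rest being upstream.
Gja1: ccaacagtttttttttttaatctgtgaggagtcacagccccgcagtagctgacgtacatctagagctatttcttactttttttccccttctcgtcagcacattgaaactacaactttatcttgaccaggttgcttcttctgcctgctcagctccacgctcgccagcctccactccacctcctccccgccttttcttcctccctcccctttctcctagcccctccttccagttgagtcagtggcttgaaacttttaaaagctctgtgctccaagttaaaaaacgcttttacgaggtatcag
Olig2: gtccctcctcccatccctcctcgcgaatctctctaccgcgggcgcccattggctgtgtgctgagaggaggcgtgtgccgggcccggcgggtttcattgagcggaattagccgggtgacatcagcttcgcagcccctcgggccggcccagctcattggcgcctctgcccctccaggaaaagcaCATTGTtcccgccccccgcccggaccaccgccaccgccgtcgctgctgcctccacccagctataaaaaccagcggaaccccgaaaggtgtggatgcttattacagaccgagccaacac
Myt1: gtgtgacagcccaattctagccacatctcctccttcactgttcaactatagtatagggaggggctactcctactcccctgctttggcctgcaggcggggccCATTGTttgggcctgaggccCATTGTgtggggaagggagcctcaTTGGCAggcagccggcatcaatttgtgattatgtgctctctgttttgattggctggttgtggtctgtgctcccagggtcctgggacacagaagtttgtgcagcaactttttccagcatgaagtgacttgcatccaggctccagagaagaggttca
The Gja1 window held 0 matches, the Olig2 window 1 and the Myt1 window 3. Of 32851 start regions of the same length, 14.1% held the NFI half-site, 12.6% the SOX core and 16.3% the E-box. These matches describe the letters only.

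Gja1 itself was spread widely over the day 4 cells. The Gja1-high cells made up 32.0% (exact 95% interval 30.2 to 33.9) and 30.6% (29.0 to 32.1) of the libraries, the Gja1-zero cells 41.1% and 39.2%, and cells in between, 680 and 1060 of them, made up the rest. Within the Gja1-high cells the log2 value had a median of 2.59 and 2.54 and reached 5.13 and 4.93. The estimated UMIs of Gja1 per cell had a median of 6 and 5, with a range of 2 to 46 and 2 to 43. Together these cells held 82.6% and 79.6% of their library's Gja1 UMIs. The threshold cuts through a continuous range, since 168 and 260 cells had values from 2 to 2.25 and 162 and 217 cells had values from 1.75 to 2. Just inside the threshold Apoe had a mean normalised count of 279 and 270, and just outside it 260 and 241. Slc1a2 had 4.15 and 4.67 just inside and 3.45 and 3.61 just outside, so both were higher just inside the cut than just outside it in both libraries. A count of 3 UMIs or fewer lay behind the Gja1 value in 12.2% and 22.9% of the Gja1-high cells, so single cells near the cut are loosely placed.

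Gja1-high cells were rare early in the culture and common later. At day 0 they were 2 and 21 cells, 0.0462% (0.00559 to 0.167) and 0.432% (0.268 to 0.66) of their libraries. At day 2 they were 57 and 276 cells, 1.16% (0.882 to 1.505) and 6.73% (5.99 to 7.55). At day 8 the share was 29.9% (28.2 to 31.6) and 49.5% (47.8 to 51.2). The pairs at days 0, 2 and 8 thus lay apart by more than counting error, while the pair at day 4 had overlapping intervals. On day 8 the depth differed as well, with a median of 7926 total UMIs per cell in the first library against 14243 in the wild-type one, and the part of depth in the day 8 gap was not tested.

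**Figure D1:**
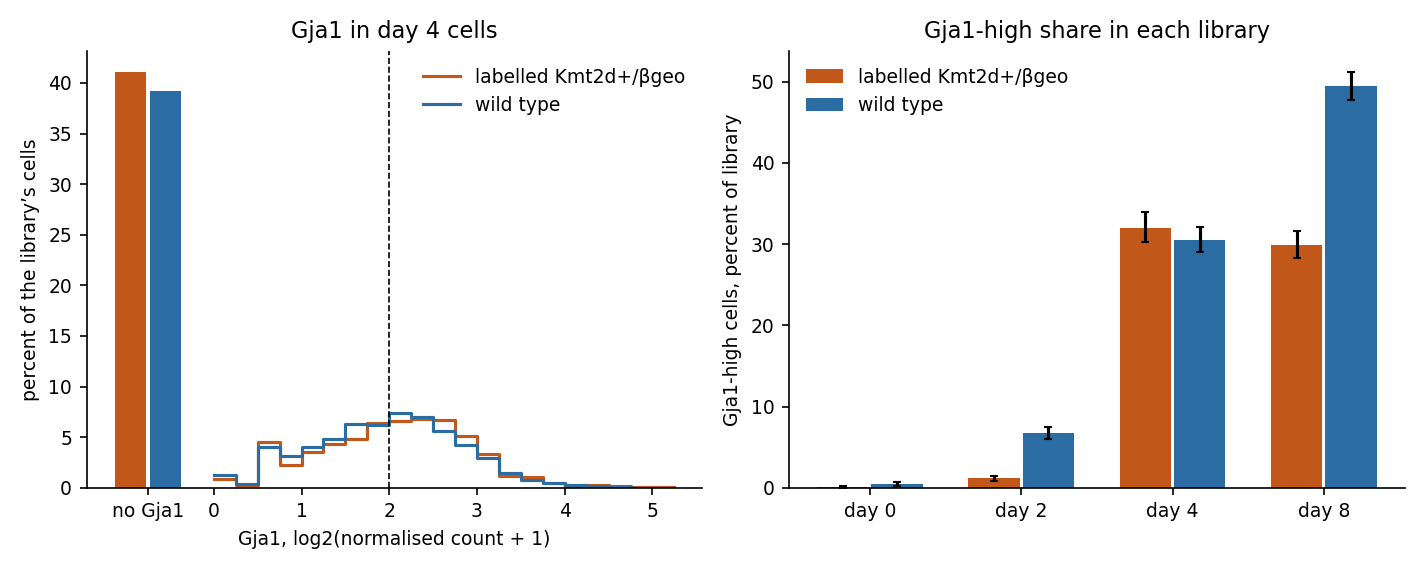
Left, the percent of each day 4 library's cells with no Gja1 (bars) and in bins of 0.25 of the log2 Gja1 value (lines), with the threshold of 2 dashed; right, the percent of Gja1-high cells in each of the 8 libraries, with exact 95% binomial intervals. The day 4 curves of both libraries run together, and the Gja1-high share is under 1% at day 0 and 32.0% and 30.6% at day 4.

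The members were then checked against astrocyte markers. Of 28 listed markers, Gja1 and 18 others were in the matrix, and Gfap, Aqp4, Aldoc, Clu and Gjb6 were among those not analysed here. A Gja1-high cell had UMIs of a median of 16 of these 18 in both libraries. Their summed normalised count per cell had a median of 535 and 523, with 5th and 95th percentiles of 297 and 874 in the first library and 276 and 857 in the second. Gja1-zero cells had a median of 15 of the 18 markers, a median sum of 437 and 408, and 5th percentiles of 49.2 and 54.5. The sets therefore overlapped over most of their range, and they parted at the low end, where cells poor in these markers were found among the Gja1-zero cells. The name astrocyte-like does not set the Gja1-high cells apart from the rest of the day 4 cells, and they are called Gja1-high here.

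The glutamate transporter gene Slc1a2 had a mean normalised count of 4.70 in Gja1-high and 3.34 in Gja1-zero cells of the first library, and 4.62 and 3.06 in the second. The log2 ratio of the means was 0.50 and 0.59. From summed UMIs it was 0.38 (exact 95% interval 0.32 to 0.44) and 0.48 (0.42 to 0.53). Apoe, among the most abundant RNAs of these cells, had means of 293 and 216 in the first library and 272 and 200 in the second, a log2 ratio of 0.44 in both. Glul had 6.68 and 4.45, then 6.62 and 4.08, with log2 ratios of 0.58 and 0.70. By the ratio of means all 3 genes were thus modestly higher in the Gja1-high cells of both libraries, and none came near a doubling. The gap depended on the measure, since the mean log2 value of Apoe was 8.10 against 7.14 and 7.99 against 7.10.

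Detection followed the same order. With each cell thinned to 3000 UMIs, which left out 0 cells, Slc1a2 was seen in 63.7% (60.3 to 67.0) and 65.3% (62.4 to 68.2) of Gja1-high cells and in 51.9% (48.8 to 55.0) and 49.6% (47.0 to 52.3) of Gja1-zero cells. Unthinned, the shares were 86.7% and 87.2% against 71.5% and 68.4%. Free RNA in the droplets can place an abundant RNA in cells that do not make it. The 146 and 198 Gja1-zero cells with a UMI of Rbfox3, which encodes the neuronal protein NeuN, had thinned Slc1a2 shares of 43.8% (35.6 to 52.3) and 34.3% (27.8 to 41.4) at median depths of 8498 and 7326 UMIs. These Rbfox3-positive cells also held Apoe nearly throughout, and no set of cells known to lack Slc1a2 was at hand. The part of free RNA in the shares was not tested.

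Across all genes the contrast was small. Of 7553 and 7508 genes with a mean normalised count of at least 0.1 in either set, 1 gene (0.0132%) and 0 genes (0%) were higher in Gja1-high cells by a log2 ratio of at least 1, and 73 (0.967%) and 72 (0.959%) were lower by as much. The single gene was Hacd4, a low gene with means of 0.131 and 0.0636. It reached the minimum level only through the Gja1-high cells, and many of the lower genes did so only through the Gja1-zero cells. Nothing is therefore read from the balance of higher and lower genes. At a log2 ratio of at least 0.5, a limit added after the data were seen, 102 (1.35%) and 141 (1.88%) genes were higher and 362 (4.79%) and 346 (4.61%) lower. Of the 7431 genes tested in both libraries, 52 (0.7%) were lower by at least 1 in both, 229 (3.08%) were lower by at least 0.5 in both, and 36 (0.484%) were higher by at least 0.5 in both. The log2 ratios correlated across these genes with Pearson's r = 0.842 between the libraries, where genes are not independent of each other and the same rule chose the cells on both sides. The median log2 ratio was -0.054 and -0.051. When the Gja1-zero cells were drawn to match the Gja1-high cells in depth, 31 and 21 genes were lower by at least 1, and by the difference of mean log2 values 0 and 0 were, a limit that many of these genes could not reach because their mean log2 value in Gja1-zero cells was under 1.

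**Figure D2:**
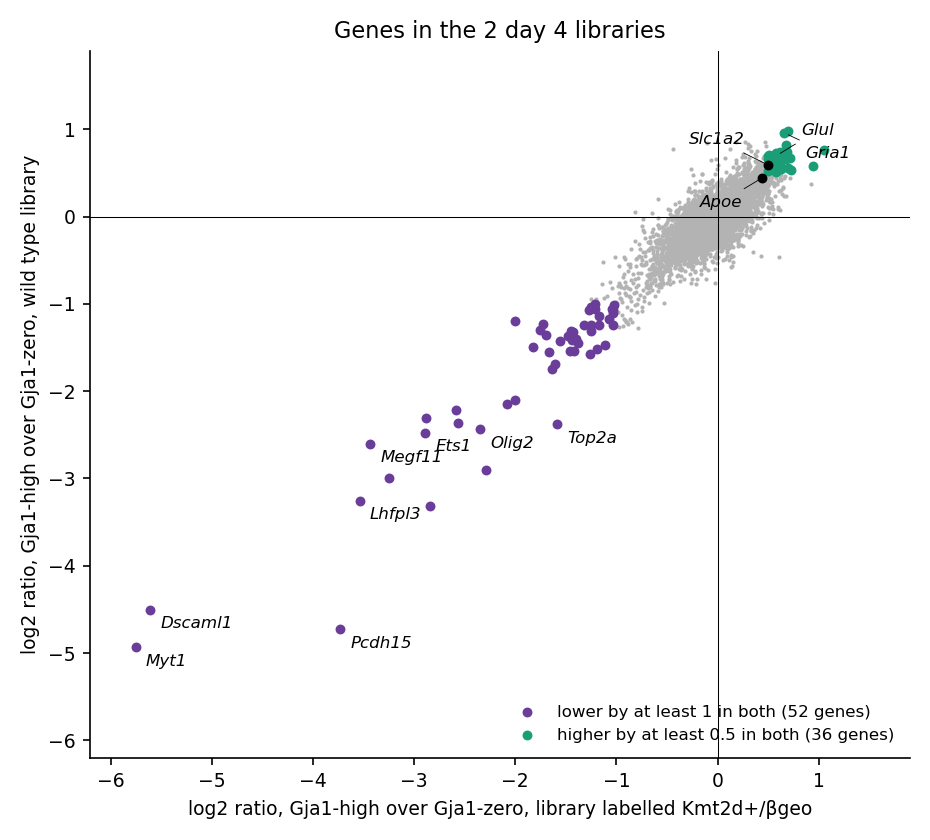
Each point is 1 of the genes tested in both day 4 libraries, at its log2 ratio of mean normalised counts, Gja1-high over Gja1-zero, in the library labelled Kmt2d+/βgeo (horizontal) and the wild-type library (vertical). The 52 genes lower by at least 1 in both reach below -5, while the 36 genes higher by at least 0.5 in both reach 1.05 at most, and Slc1a2 and Apoe lie beside them. Many of the 52 reached the minimum level only through the Gja1-zero cells, so nothing is read from this difference in reach.

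The genes furthest down included Myt1, Lhfpl3 and Olig2, which are known from the oligodendrocyte lineage. Myt1 had a mean normalised count of 0.0065 in Gja1-high and 0.351 in Gja1-zero cells of the first library, and 0.00946 and 0.288 in the second. From summed UMIs its log2 ratio was -5.01 (-6.33 to -3.94) and -4.43 (-5.51 to -3.53). Lhfpl3, a tetraspan protein gene known from oligodendrocyte precursors, had 0.0552 and 0.641, then 0.0647 and 0.616, with log2 ratios of the means of -3.54 and -3.25. Olig2 had means of 0.724 and 3.68 in the first library and 0.648 and 3.50 in the second. Its log2 ratio was -2.34 and -2.43, or -2.02 (-2.15 to -1.90) and -2.08 (-2.20 to -1.96) from summed UMIs. Myt1 and Lhfpl3 reached the minimum level only through the Gja1-zero cells, so the filter fixed their direction and nothing is read from it. Olig2 was above the minimum in both sets, and its mean was lower in the Gja1-high cells of both libraries. A UMI of Lhfpl3 was found in 18.1% and 15.5% of Gja1-zero cells, so a minority of them carried its mean.

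Other strongly lower genes had means under 0.6 in both sets. Dscaml1, Pcdh15, Megf11, Ets1 and Bcas1 reached the minimum level only through the Gja1-zero cells, so the filter fixed their direction and nothing is read from it. Dscaml1, a cell adhesion gene of neurons, had log2 ratios of -5.61 and -4.50, and Pcdh15, a protocadherin gene, -3.73 and -4.73, from means of at most 0.173 in Gja1-zero cells. Megf11 had -3.44 and -2.60, the transcription factor gene Ets1 -2.89 and -2.47, and Bcas1, a marker of cells on the way to myelinating oligodendrocytes, -2.88 and -2.30. More abundant genes were lower by smaller ratios. Basp1, which encodes a growth-cone membrane protein, had 1.65 against 4.29 and 1.65 against 4.52, Ncald, a neuronal calcium sensor, 1.66 against 4.36 and 1.53 against 4.06, and the chromatin remodeller gene Chd7 0.856 against 2.32 and 0.806 against 2.05. Rev3l, the catalytic subunit gene of DNA polymerase zeta, had 0.994 against 2.77 and 1.00 against 2.58. Stmn3, a microtubule regulator of neurons, had 0.706 against 1.59 and 0.742 against 1.75.

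In absolute level the largest gap downward was Tmsb4x, which encodes the actin-binding peptide thymosin beta 4. Its mean was 80.4 against 124 and 80.1 against 128 normalised counts, a log2 ratio of -0.63 and -0.67. Actb had 40.7 against 50.3 and 37.6 against 47.9. Upward, Apoe led with a mean difference of 74.6 over both libraries, followed by the secreted protease inhibitor gene Cst3, with 134 against 97.6 and 143 against 95.7, and the metallothionein gene Mt3, with 125 against 91.4 and 177 against 126. Cst3 and Mt3 were thus higher in both libraries by a log2 ratio of 0.45 to 0.58.

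The genes with the highest ratios were mostly low in level. Gria1, a glutamate receptor subunit gene, had 0.322 against 0.204 and 0.285 against 0.146. The integrin gene Itga1 had 0.313 against 0.195 and 0.307 against 0.173. Hopx, a homeodomain gene of hippocampal and cortical radial glia, stood at a higher level, 1.94 against 1.25 and 1.93 against 1.19, with log2 ratios of 0.63 and 0.71. Pla2g7, which encodes a secreted phospholipase and is abundant in astrocytes, had 10.8 against 7.42 and 11.2 against 7.15. These sizes lie close to those of Slc1a2 and Glul. By the ratio of means, of the tested genes other than Gja1, Hacd4 alone passed 1 upward, in 1 library. By the difference of mean log2 values the astrocyte marker Sparcl1 passed 1 upward in both libraries, with 4.74 against 3.62 and 4.71 against 3.67.

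By group, the astrocyte markers leaned upward as a list. Of 18 tested besides Gja1, 16 were above 0 in both libraries, 2 (Glul and Sparcl1) passed 0.5 in both, against 0.484% of all genes, and 0 were below 0 in both. Over all 7431 genes, 29.8% were above 0 in both and 49.5% below 0 in both. The list median was 0.31 and 0.42, against -0.054 and -0.052 over all 7431 genes. Against Gja1-zero cells with no UMI of Olig2 or Myt1 it was 0.0448 and 0.085, and the glutamate and GABA list below had 0.0412 and 0.0657. The transporter gene Slc1a3 had 0.37 and 0.43, the bicarbonate transporter gene Slc4a4 0.48 and 0.59, and the transcription factor gene Sox9 0.25 and 0.40. The gliogenic factor genes Nfia and Nfib stayed at 0.05 and -0.03, and at 0.11 and -0.0016. Aldh1l1, a folate enzyme gene widely used to mark astrocytes, had 0.31 and 0.60. S100b, a calcium-binding protein gene, had 0.08 and 0.07.

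Genes of glutamate and GABA handling were above 0 in both libraries for 12 of 15, against 29.8% of all genes, with a median of 0.35 and 0.32. Glud1, the glutamate dehydrogenase gene, had 0.44 and 0.45, and Slc38a3, a glutamine transporter gene, 0.51 and 0.37. The mitochondrial transaminase gene Got2 went the other way, with -0.60 and -0.47. The metallothionein and antioxidant list was above 0 for 12 of 13, with a median of 0.34 and 0.33, which was -0.00704 and 0.0451 against Gja1-zero cells with no UMI of Olig2 or Myt1. Mt2 had 0.50 and 0.50, Prdx6 0.40 and 0.42, and the regulator gene Nfe2l2 0.37 and 0.41. None of these 13 genes passed 0.5 in both libraries. The glycolysis and lactate list was above 0 for 9 of 11, with a median of 0.21 and 0.17. Of these, the lactate transporter gene Slc16a1 had 0.45 and 0.50, and the glycogen phosphorylase gene Pygb 0.39 and 0.41. The ion and water homeostasis list was above 0 for 9 of 14 (median 0.19 and 0.17), with Atp1b1 at 0.43 and 0.60.

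Lists for signalling and lipid genes stayed near the median of all genes. Medians were -0.01 and 0.11 for cholesterol synthesis (16 genes), 0.03 and 0.10 for lipid transport (8), 0.02 and -0.02 for BMP and Id genes (7), and -0.06 and -0.12 for Notch (5). They were 0.03 and -0.05 for FGF and EGF receptor signalling (10), -0.09 and -0.05 for extracellular matrix and adhesion (17), and 0.11 and 0.05 for gliogenic transcription factors (12). Egfr, the receptor for one of the withdrawn factors, had 2.34 against 2.99 and 2.19 against 2.88, a log2 ratio of -0.35 and -0.40. The reactive astrocyte list (6 tested) had 0.16 and 0.13. The 4 tested genes of the connexin and pannexin list, which came without Gja1, had a median of -0.18 and -0.13 (-0.0616 and 0.0089 against Gja1-zero cells with neither Olig2 nor Myt1), and Panx1 had -0.56 and -0.63.

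Few markers of other cell types could be tested. Of 20 neuron markers 6 were in the matrix and 4 reached the minimum level, and all 4 were lower by at least 0.5 in both libraries, where 3.08% of all genes were, with a median of -0.86 and -0.90. Gad1 reached the minimum level only through the Gja1-zero cells, so nothing is read from this count. Against Gja1-zero cells with no UMI of Olig2 or Myt1 the median was -0.0113 and 0.029. Map2, a dendritic microtubule protein gene, had 3.27 against 4.79 and 3.09 against 4.58, and Gad1, a GABA-synthesis gene, had log2 ratios of -1.22 and -1.004. The summed level of the 6 neuron markers had 5th, 50th and 95th percentiles of 0.846, 3.46 and 7.45 in Gja1-high cells of the first library and of 0.909, 4.21 and 15.4 in its Gja1-zero cells. In the second library they were 0, 3.30 and 7.34 against 0.363, 4.20 and 15.6. Dcx, Tubb3, Stmn2, Snap25 and Syt1 were not analysed here. Of 12 oligodendrocyte-lineage markers only Olig2 and Bcas1 were in the matrix, and both were lower by at least 1 in both libraries, where 0.7% of all genes were. Bcas1 reached the minimum level only through the Gja1-zero cells, so nothing is read from this count. Their summed level had a median of 0 in Gja1-high cells of both libraries and a 95th percentile of 3.97 and 3.61, against medians of 0.786 and 0.837 and 95th percentiles of 19.997 and 19.6 in Gja1-zero cells. Of the 10 microglia, 10 endothelial and mural, and 8 fibroblast markers 0 were in the matrix, and of 7 ependymal markers 1, Dynlrb2, with log2 ratios of 0.18 and 0.85. The part of such cells in the contrast was not tested.

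Of 6 tested radial glia and progenitor markers 5 were above 0 in both libraries, against 29.8% of all genes (median 0.19 and 0.14, or 0.00627 and -0.0242 against Gja1-zero cells with no UMI of Olig2 or Myt1), with Vim at 0.14 and 0.10 and Fabp7 at 0.13 and 0.09. All 10 tested S-phase genes were below 0 in both libraries, against 49.5% of all genes (median -0.22 and -0.30, or 0.0219 and -0.0135 against Gja1-zero cells with neither gene), among them the replication helicase gene Mcm7, with -0.67 and -0.71. Mcm4 in the first library and Tyms in the second reached the minimum level only through the Gja1-zero cells, so nothing is read from this count. Of 6 tested genes of G2 and M phase 4 were below 0 in both, against 49.5% of all genes (median -0.35 and -0.16). One of them, Top2a, reached the minimum level only through the Gja1-zero cells, so nothing is read from this count. Top2a, a topoisomerase gene of dividing cells, had 0.0587 against 0.176 and 0.0411 against 0.214, log2 ratios of -1.59 and -2.38. Few cells carried it. In cells thinned to 3000 UMIs, Top2a was seen in 1.60% (0.855 to 2.72) and 1.68% (0.997 to 2.64) of Gja1-high cells and in 2.21% (1.40 to 3.29) and 2.18% (1.47 to 3.09) of Gja1-zero cells, with overlapping intervals. The single dissociation-response gene of its list in the matrix, Hspa8, had -0.15 and -0.19.

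The levels also varied along Gja1 within and below the threshold, and not in a straight line. Apoe was 216 and 200 in Gja1-zero cells, 180 and 164 in cells with log2 Gja1 above 0 and under 1, 248 and 227 from 1 to 2, 278 and 269 from 2 to 2.5, 303 and 271 from 2.5 to 3, and 305 and 277 from 3 upward. Cells in the bin above 0 and under 1 were thus lower in Apoe than cells with none, and the level hardly moved above 2.5. Normalised counts sum to 8707 per cell, so a cell with 1 Gja1 UMI falls in that bin only if it holds over 8707 matrix UMIs. Depth thus helped to set that bin, and the part of depth in the dip was not tested. Within the Gja1-high cells, Glul went from 5.85 and 6.21 in the bin from 2 to 2.5 to 7.38 and 7.36 from 3 upward, and Pla2g7 from 9.31 and 10.2 to 13.02 and 13.5. Slc1a2 was 4.12 and 4.42, then 5.248 and 4.51, then 4.91 and 5.24 over the 3 bins, with no common order in the upper pair of bins. Olig2 went down throughout in mean level, from 3.68 and 3.50 in Gja1-zero cells to 3.45 and 3.14 in cells above 0 and under 1, 1.58 and 1.53 from 1 to 2, 0.960 and 0.774 in the bin from 2 to 2.5 and 0.464 and 0.434 from 3 upward. Tmsb4x went from 87.3 and 85.8 to 68.5 and 69.6 over the Gja1-high bins. The gradient in Glul, Pla2g7, Olig2 and Tmsb4x had the same direction in both libraries.

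**Figure D3:**
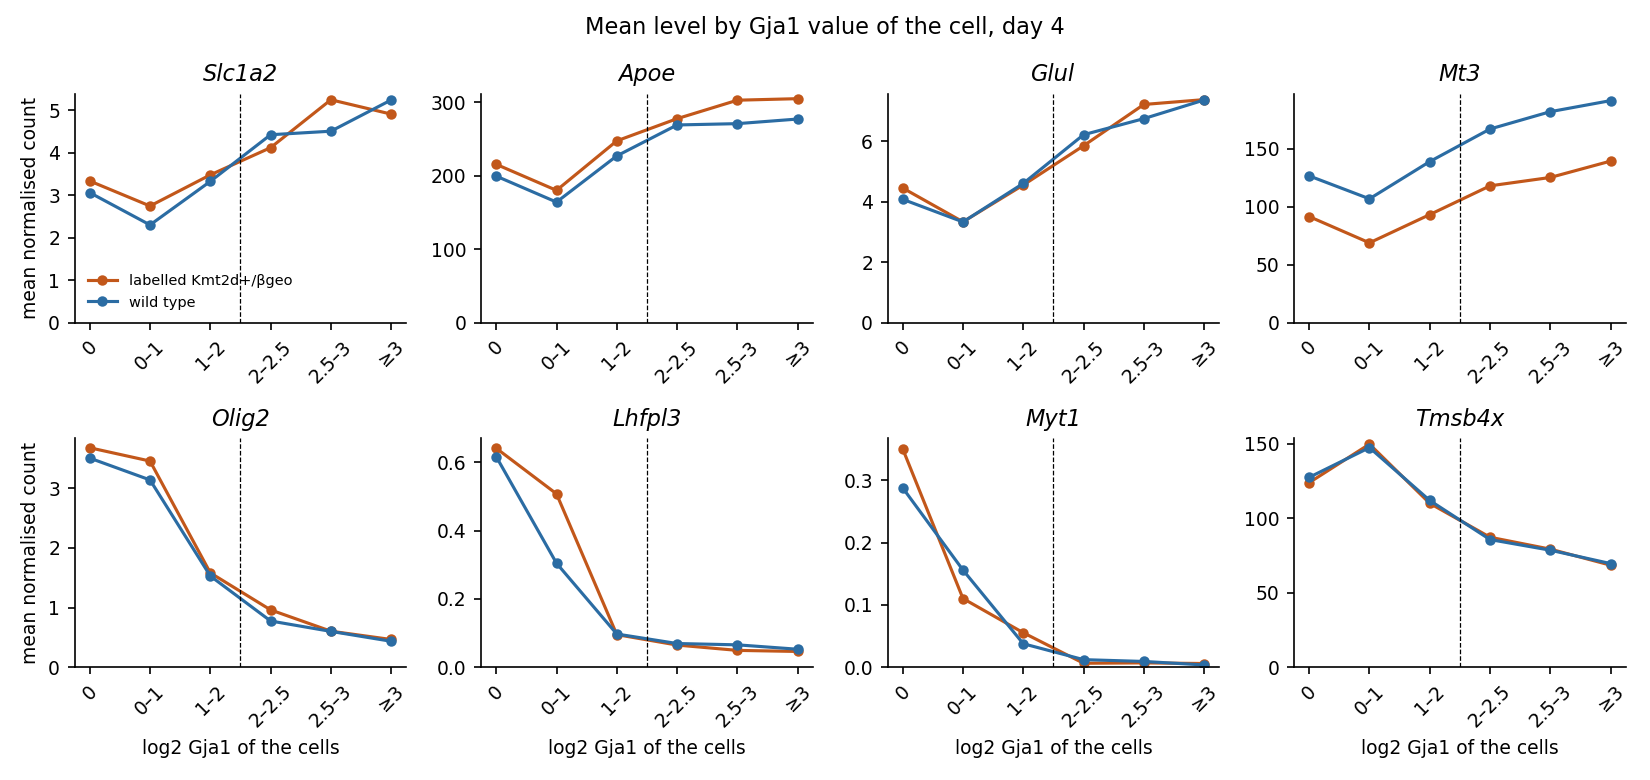
Mean normalised count of 8 genes in day 4 cells binned by their log2 Gja1 value, for the library labelled Kmt2d+/βgeo and the wild-type library; the dashed line marks the threshold of 2, and the points carry no error bars. Apoe, Slc1a2, Glul and Mt3 dip in the bin above 0 and under 1, which cell depth helped to set, and are higher beyond the threshold. Olig2 has already dropped in the bin from 1 to 2. Lhfpl3 and Myt1 reached the minimum level only through the Gja1-zero cells, so nothing is read from their direction.

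The Gja1-zero cells were themselves mixed. Of the Gja1-zero cells, 51.4% (48.4 to 54.5) and 52.4% (49.7 to 55.1) had an Olig2 UMI, against 34.7% (31.5 to 38.1) and 32.0% (29.2 to 34.9) of Gja1-high cells. In the cells between the sets it was 53.97% (50.1 to 57.8) and 52.5% (49.4 to 55.5), no lower than in the Gja1-zero cells. In cells thinned to 3000 UMIs the shares in Gja1-zero and Gja1-high cells were 36.3% (33.4 to 39.3) and 37.2% (34.6 to 39.8) against 16.5% (14.01 to 19.2) and 15.7% (13.5 to 18.0). Myt1 was seen in 15.4% (13.2 to 17.7) and 12.1% (10.4 to 13.96) of Gja1-zero cells and in 6 and 9 Gja1-high cells, 0.739% (0.272 to 1.60) and 0.839% (0.384 to 1.59). After thinning it was seen in 0 of 812 (0 to 0.453%) and 3 of 1073 (0.280%) Gja1-high cells. Olig2 and Gja1 RNA thus occurred together in more than 30% of the Gja1-high cells, at a low Olig2 level. Myt1 reached the minimum level only through the Gja1-zero cells, so nothing is read from its low share in Gja1-high cells. Free RNA as a source of these UMIs was not tested.

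Split by these genes, the Gja1-zero cells fell into parts with unlike levels, a split chosen after the data were seen. The 543 and 727 Gja1-zero cells with an Olig2 or Myt1 UMI had mean normalised counts of 153 and 146 for Apoe, 2.42 and 2.16 for Slc1a2, and 2.74 and 2.54 for Glul. The 160 and 167 of them with Myt1 were far lower, with 44.97 and 51.1 for Apoe, 0.735 and 0.663 for Slc1a2 and 1.06 and 0.8999 for Glul, and higher in Map2, with 9.78 and 9.51. Their median depth, 6802 and 5833 matrix UMIs, was also below that of the other sets. The 499 and 651 Gja1-zero cells with neither gene had 284 and 260 for Apoe, 4.34 and 4.07 for Slc1a2 and 6.32 and 5.79 for Glul. Gja1-high cells with neither gene, 527 and 725 of them, had 303 and 279, 4.94 and 4.92, and 7.21 and 7.37. With cells of either gene left out on both sides, all 3 genes were still higher in the Gja1-high cells, by less than in the main comparison.

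The Gja1-high cells were also split. The 285 and 348 with an Olig2 or Myt1 UMI, 35.1% and 32.4% of them, had 274 and 256 for Apoe, 4.26 and 4.00 for Slc1a2 and 5.69 and 5.07 for Glul. These were below the Gja1-high cells with neither gene, yet far above the Gja1-zero cells with an Olig2 or Myt1 UMI. Their Map2 level, 3.28 and 3.29, was near that of the Gja1-high cells with neither gene, 3.26 and 2.99. Their Gja1 level was 5.45 and 5.37 against 6.11 and 5.83. The Gja1-zero cells with an Olig2 or Myt1 UMI were not a like group, with a mean Olig2 of 7.05 and 6.64 against 2.06 and 2.00. They also held 160 and 167 cells with Myt1, against 6 and 9 among all Gja1-high cells.

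**Figure D4:**
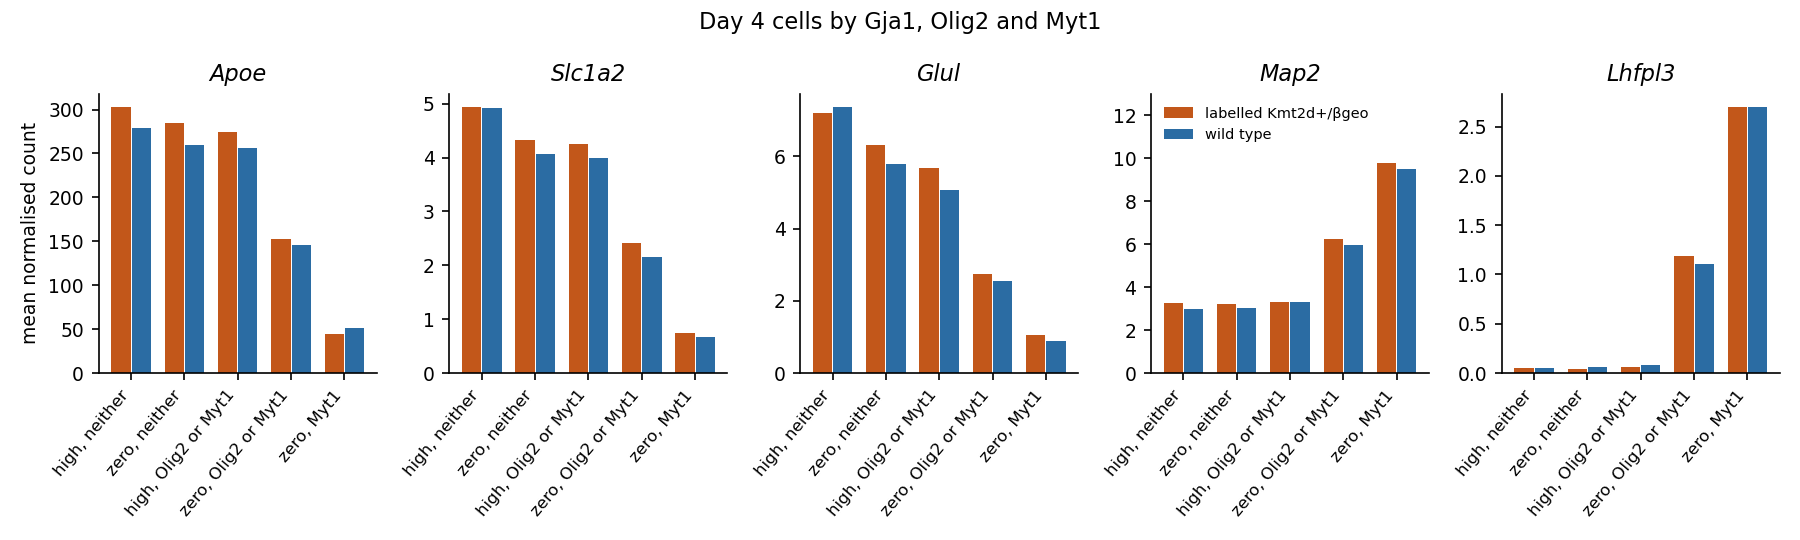
Mean normalised count of 5 genes in day 4 cells of each library (bars), split into Gja1-high and Gja1-zero cells with and without a UMI of Olig2 or Myt1; the last group is the part of the Gja1-zero cells with Myt1. Apoe, Slc1a2 and Glul are lowest and Map2 and Lhfpl3 highest in the Gja1-zero cells with Myt1.

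When all Gja1-high cells were set against the Gja1-zero cells with neither Olig2 nor Myt1, 1 gene in the first library and 0 in the second were lower by at least 1, in place of 73 and 72, and the counts of higher genes were 1 and 1, in both cases Olig2, which the choice of cells set to 0 on the other side. The log2 ratio of Lhfpl3 became 0.32 and 0.01 and that of Map2 0.03 and 0.02. Olig2 and Myt1 were picked from the lowest genes of this contrast, and cells with them were left out on the Gja1-zero side only, so part of this fall follows from the choice itself, and which cells bear the contrast was not tested.

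Gja1-high cells of days 2 and 8, which took no part in choosing the genes, were compared with Gja1-zero cells of their own libraries. Of the 52 genes lower by at least 1 at day 4, 44 were tested in the day 2 library labelled Kmt2d+/βgeo and 27 were lower by at least 1 there, against 4.37% of all genes. In the wild-type day 2 library it was 42 of 46 against 2.48%. On day 8 it was 20 of 43 against 0.807% in the library labelled Kmt2d+/βgeo and 23 of 41 against 0.759% in the wild-type library. Of the 36 genes higher by at least 0.5, 19 of 28 and 27 of 29 passed 0.5 on day 2, against 14.7% and 11.3% of all genes. On day 8 it was 14 of 33 against 3.47%, and 0 of 33 against 0.253%. In the wild-type day 8 library 32 of these 33 were above 0, against 44.0% of all genes. Their median log2 ratio there was 0.21, against -0.02 over all genes. Many of the 52 lower genes reached the minimum level at day 4 only through the Gja1-zero cells, and some of the 36 higher ones, such as Hacd4, only through the Gja1-high cells. These counts are therefore a description, printed with the shares over all genes but with nothing read from the gap.

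The size of the contrast changed with the day for astrocyte genes. The log2 ratio of the means of Slc1a2 was 1.499 and 1.77 on day 2, 0.50 and 0.59 on day 4, and 0.28 and 0.28 on day 8. For Apoe it was 1.15 and 1.05, then 0.44 and 0.44, then 0.13 and 0.22. The astrocyte list had a median of 0.87 and 0.89 on day 2 and of 0.30 and 0.21 on day 8, against 0.31 and 0.42 on day 4. Olig2 showed no such order, with -1.19 and -2.13 on day 2, -2.34 and -2.43 on day 4, and -1.42 and -2.38 on day 8. In each series the first day 4 value comes from the library whose label is in doubt. The S-phase list had a median of -0.30 and -0.22 on day 2 and of -0.42 and -0.95 on day 8. These days differ in how many cells each set holds and in depth, and whether the differences between days exceed the spread of cultures could not be tested with 1 library each.

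**Figure D5:**
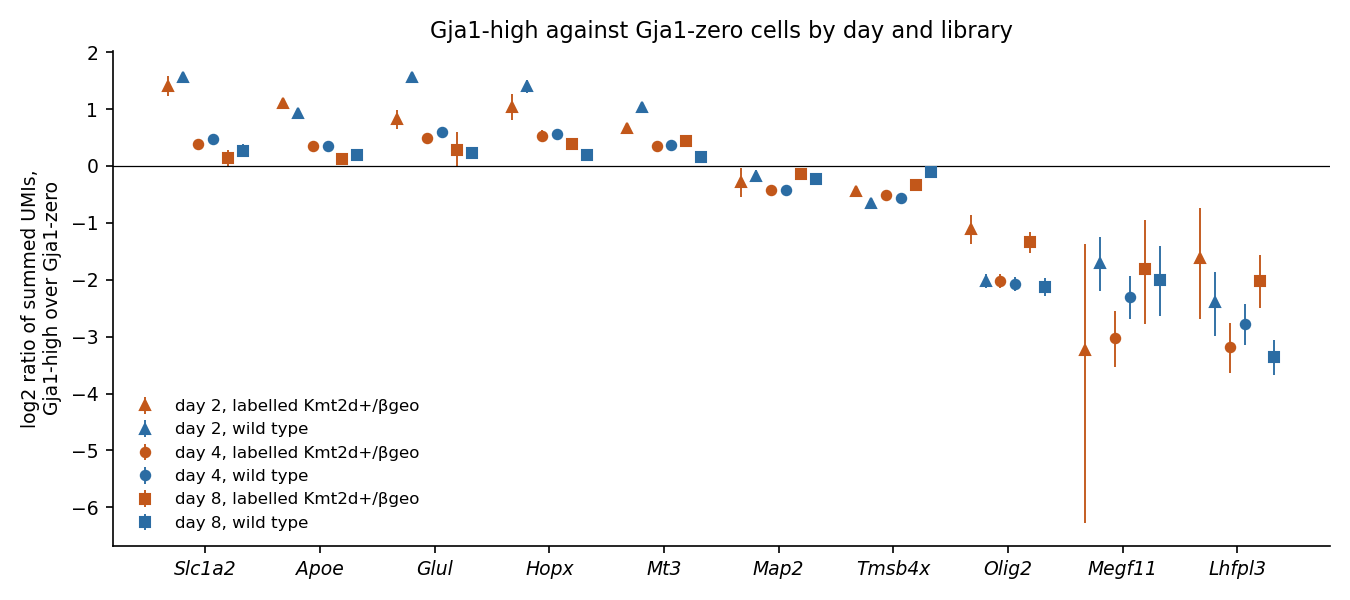
Log2 ratio of summed UMIs, Gja1-high over Gja1-zero cells, for 10 genes on days 2, 4 and 8 in the libraries labelled Kmt2d+/βgeo and the wild-type libraries, with exact conditional 95% intervals that cover counting error only. Slc1a2, Apoe and Glul are nearest to 0 on day 8, and Olig2 lies below -1 on every day. Megf11 and Lhfpl3 reached the minimum level at day 4 only through the Gja1-zero cells, so nothing is read from their direction.

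Between the day 4 libraries the Gja1-high cells were alike. Of 7431 genes, 0 (0%) differed by a log2 ratio of at least 1, the largest absolute log2 ratio was 0.818 and the SD over genes was 0.149. Since the label of one library is in doubt, this says nothing about the genotypes.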

How the data were processed

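Droplet single-cell RNA sequencing (10x Genomics 3′ v3) covered 8 libraries, with 1 per genotype and day. As the study's methods state, the authors ran Alevin (Salmon 1.3.0) against GRCm38, kept the spliced counts, removed cells with under 200 genes and outliers in depth, genes, mitochondrial share or doublet score, and scaled and log2 transformed the values with scuttle. No doublet caller was run here. The deposited matrix holds log2(normalised count + 1) for 9140 genes and 30408 cells, and the deposited cell table holds each cell's total UMIs as estimated counts.

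The log2 values were turned back to normalised counts, which summed to 8707 per cell. A cell's most frequent value was read as 1 UMI, and 86.7% of values were then within 0.01 of a whole UMI. Estimated counts were rounded for thinning and sums. For each gene the means of the normalised count were set against each other as a log2 ratio, with no test, at a minimum mean of 0.1 in either set and a threshold of 1. Shares have exact (Clopper-Pearson) 95% intervals and ratios of summed UMIs exact conditional intervals. The step that counts genes was run on simulated counts with large changes put into genes above the minimum level. That does not show how it treats small changes or genes at the minimum. Python 3.11.15, numpy 2.4.6, scipy 1.17.1 and pandas 2.3.3 were used.

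The members, the gene lists and the thresholds were chosen with earlier results of these data known. Named genes were up to 5 per list by mean day 4 ratio, the 12 lowest and 12 highest past 1 in both libraries at a mean of at least 0.5 (0 were high), the 10 with the largest difference in level, and the 3 markers Gja1, Slc1a2 and Apoe. Myt1, Dscaml1, Pcdh15, Megf11, Ets1, Hacd4, Gria1, Itga1, Pla2g7, Slc1a3, Aldh1l1, S100b, Nfia, Nfib, Fabp7 and Luzp2 were named after their values were seen. Alternatives changed the Gja1 threshold, depth, minimum level, measure and comparison cells.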

Additional observations from a re-analysis of the deposited data

How the results depend on the processing

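No test was run, paired or unpaired: the sets were compared within each of the 2 day 4 libraries, and each library is given on its own. Values are for the library labelled Kmt2d+/βgeo first. The share of Gja1-high cells was 43.2% and 43.1% at a threshold of 1.5, 18.6% and 16.2% at 2.5, and 20.05% and 20.5% in cells thinned to 3000 UMIs. Without the deepest 5% of cells or without shared barcodes it stayed within its interval. The counts of higher genes, 1 and 0, became 8 and 8 after thinning, 2 and 6 at a threshold of 2.5, 9 and 15 with no minimum, and 102 and 141 at a log2 ratio of 0.5. In the first library they were 0 with depth-matched cells, summed UMIs, a minimum of 0.5 or all other day 4 cells as the comparison. In the second they were 1 by the difference of mean log2 or against cells without Olig2 or Myt1, and 2 without the deepest 5%. The counts of lower genes, 73 and 72, became 31 and 21 with depth-matched cells, 0 and 0 by the difference of mean log2, 22 and 23 at a minimum of 0.5, 131 and 119 with no minimum, 362 and 346 at a log2 ratio of 0.5, and 1 and 0 against cells without Olig2 or Myt1. Minimum and ratio limits change the counts by construction, and the cause of the other shifts was not tested. Of 193 recomputed ratios of 11 genes, 92 were counted as the same, 97 as moved and 4 changed sign. The sign changes were all against cells without Olig2 or Myt1: Lhfpl3 (0.323 and 0.00739) and Map2 (0.0328 and 0.0242). Of 324 recomputed list medians, 256 were counted as the same, 59 as moved, and 9 changed sign. Against cells without Olig2 or Myt1 the lists that changed sign were, in the first library, reactive astrocyte (-0.077), metallothionein and antioxidant (-0.00704) and S phase (0.0219). In the second they were radial glia and progenitor (-0.0242), neuron (0.029), connexins and pannexins (0.0089), cholesterol synthesis (-0.0048) and Notch (0.038). G2 and M phase in the second library (0.0104) did so at a threshold of 2.5. The 0.5 limit and the comparison without Olig2 or Myt1 were added after the data were seen.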
